A study of Mus musculus with 8 samples.

Results

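The Wnt ligands, their Frizzled receptors and the secreted inhibitors of the sFRP and Dickkopf families were examined in mouse hearts after pressure overload. They were taken by symbol: a gene of the deposited table belonged if its name began with Wnt, Fzd, Sfrp or Dkk and a number (1 to 5 for Sfrp, 1 to 4 for Dkk). Among 30445 listed genes 35 matched, 17 named Wnt, 11 named Fzd, 4 named Sfrp and 3 named Dkk. Fzd10os is the exception in kind, a non-coding RNA gene on the strand opposite to Fzd10, and no receptor. Related genes with other symbols did not match, among them the extracellular modulator Frzb, which was counted in the pathway lists below. The hearts came from C57 mice, all operated on for transverse aortic constriction, in which the aortic arch is tied narrow and the left ventricle must pump against a raised pressure, and were taken at 8 weeks. There were 4 libraries labelled Mertk knockdown and 4 wildtype libraries, and hearts without constriction were not analysed here. The labels give neither the means by which Mertk, an engulfment receptor of macrophages, was lowered nor the cells in which this was done. They also do not say that each library is a separate mouse, so p-values measure only the spread between these libraries, which may be technical.

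Wnt proteins are lipid-modified secreted ligands that bind the extracellular cysteine-rich domain of Frizzled receptors. With the coreceptors LRP5 and LRP6 they keep beta-catenin from being degraded, and with other coreceptors they act on cell polarity and calcium without beta-catenin. Secreted frizzled-related proteins (sFRPs) carry a Frizzled-like domain and can bind Wnt ligands, and Dickkopf proteins act mainly on the LRP coreceptors. The adult heart keeps most Wnt ligands at a low level, and parts of the pathway are known to return after injury.

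The libraries held between 59287621 and 71571173 counts. Mertk was not lower in the labelled knockdown libraries: it averaged 11.86 ± 0.951 CPM there and 11.05 ± 0.87 CPM in wildtype libraries (CPM, counts scaled to library size, SD, n = 4 each; log2 fold change 0.10, edgeR adjusted p = 0.766), and a direction given below therefore follows the labels alone. All 6 cardiomyocyte markers had counts in every library, with sums of 36570 to 41360 CPM in labelled knockdown libraries and 24350 to 34800 CPM in wildtype libraries. Other marker sums differed strongly between libraries, and those of the hepatocyte markers nearly followed the group labels. The 6 hepatocyte markers summed to 97.8 to 176 CPM in all 4 labelled knockdown libraries and to 170 CPM in wildtype replicate 1, against 1.06 to 6.21 CPM in wildtype replicates 2 to 4. The 4 atrial markers summed to 606 CPM in labelled knockdown replicate 4 and to 339 and 201 CPM in wildtype replicates 3 and 4, against 1.003 to 3.71 CPM in the other 5 libraries. Their part in the results below was not tested. Fold changes are also given for the 5 libraries with low atrial marker sums (3 labelled knockdown and 2 wildtype), called without atrial transcripts below. For some members they are also given for the 5 libraries with high hepatocyte marker sums, called with hepatocyte transcripts below. The hepatocyte set holds all 4 labelled knockdown libraries but wildtype replicate 1 as its single wildtype library, so its p-values assume that wildtype libraries vary as the labelled knockdown ones do. In whole tissue, fewer cells of a type and less RNA per cell cannot be told apart.

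Upstream sequence is shown for 1 ligand, 2 receptors and 1 inhibitor, chosen after their values were seen: the members with an entry and an unadjusted p under 0.05, and the sFRP gene with the smallest p. Each line gives the 250 bases before the annotated start, 5′ to 3′ on the gene's strand, from RefSeq on GRCm38.p6, the same build as mm10. Capitals mark matches on either strand to the GC box GGGCGG (its reverse complement where it lies on the other strand), the TCF/LEF core CTTTGAA or CTTTGAT, the core of the interferon-stimulated response element, and the E-box CACGTG; neighbouring GC boxes may overlap.
Wnt9a (chr11:59306680-59306929, plus strand): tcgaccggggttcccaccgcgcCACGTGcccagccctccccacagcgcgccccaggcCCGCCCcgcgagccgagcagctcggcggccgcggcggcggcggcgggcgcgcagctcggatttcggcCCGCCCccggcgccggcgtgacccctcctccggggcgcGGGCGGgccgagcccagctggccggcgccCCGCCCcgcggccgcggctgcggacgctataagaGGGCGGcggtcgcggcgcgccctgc
Fzd4 (chr7:89404116-89404365, plus strand): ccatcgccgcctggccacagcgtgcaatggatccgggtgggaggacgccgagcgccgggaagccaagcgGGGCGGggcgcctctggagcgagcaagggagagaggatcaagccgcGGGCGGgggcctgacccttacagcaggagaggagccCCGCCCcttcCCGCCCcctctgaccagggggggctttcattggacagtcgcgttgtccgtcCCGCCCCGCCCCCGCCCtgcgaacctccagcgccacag
Fzd5 (chr1:64737751-64738000, minus strand): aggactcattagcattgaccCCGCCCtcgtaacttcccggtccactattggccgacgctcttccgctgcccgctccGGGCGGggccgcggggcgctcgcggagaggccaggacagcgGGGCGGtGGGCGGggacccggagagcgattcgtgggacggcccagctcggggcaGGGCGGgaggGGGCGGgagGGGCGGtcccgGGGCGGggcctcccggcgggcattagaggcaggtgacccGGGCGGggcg
Sfrp2 (chr3:83766071-83766320, plus strand): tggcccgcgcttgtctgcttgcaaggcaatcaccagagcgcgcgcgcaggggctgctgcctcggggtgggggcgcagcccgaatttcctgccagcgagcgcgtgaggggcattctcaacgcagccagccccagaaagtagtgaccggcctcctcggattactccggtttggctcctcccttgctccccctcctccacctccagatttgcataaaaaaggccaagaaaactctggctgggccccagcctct

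The window of Wnt9a held 5 GC boxes and 1 E-box, that of Fzd4 7 GC boxes and that of Fzd5 9 GC boxes, while none of these letters occurred in the window of Sfrp2. GC content was 84.4%, 72.8%, 76.4% and 63.6% for Wnt9a, Fzd4, Fzd5 and Sfrp2, where the median over 32851 RefSeq windows of this length was 52.4%. RefSeq windows were matched for 23 members (26 windows). A GC box was found in 19 of the 26, and in 32.7% of all windows. The TCF/LEF core was in 2 of the 26 (Wnt11 and Wnt5b) and in 7.48% of all windows, the E-box in 2 (Wnt9a and Fzd9) and in 6.02%, and the interferon element in 0 and in 2.98%. These matches describe letters only.

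The members spanned a wide range of levels, compared here in the deposited FPKM (fragments per kilobase of gene and sequencing depth), which allow for gene length. Fzd4 stood highest with a mean of 10.1 FPKM over the 8 libraries and a range of 7.57 to 13.5 FPKM. Dkk3 followed with a mean of 7.08 FPKM but a range of 1.135 to 20.45 FPKM, so its place in the order differed between libraries. Fzd6 (3.46 FPKM), Sfrp1 (3.34 FPKM), Sfrp2 (1.86 FPKM), Fzd7 (1.72 FPKM), Fzd1 (1.59 FPKM) and Wnt9a (1.01 FPKM) were the other members with a mean of at least 1 FPKM, and neighbours in this order overlapped in their ranges. No Wnt ligand besides Wnt9a reached that mean. The ligands Wnt5b, Wnt5a and Wnt11 had means of 0.816, 0.654 and 0.640 FPKM, and Wnt2b 0.254 FPKM. The remaining tested ligands (Wnt6, Wnt9b, Wnt2, Wnt10b and Wnt4) lay between 0.0435 and 0.101 FPKM on average.

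**Figure D1:**
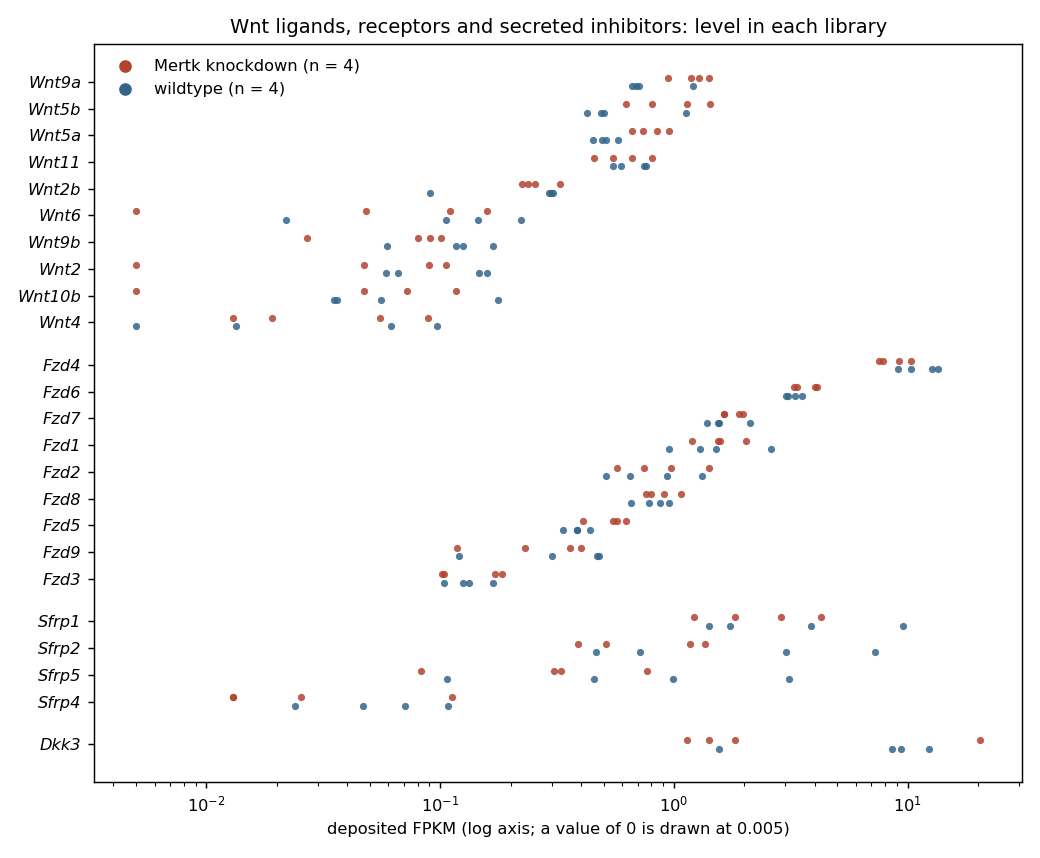
Deposited FPKM (log axis) of the 24 members with enough counts to be tested, 1 point per library, red for the 4 labelled Mertk knockdown libraries and blue for the 4 wildtype libraries. Fzd4 has the highest mean, 10.1 FPKM, most ligands lie below 1 FPKM, and the libraries of the inhibitors Dkk3, Sfrp1, Sfrp2 and Sfrp5 spread 7.81-fold to 37.5-fold.

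The filter on low counts kept 24 of the 35 members, namely 10 Wnt, 9 Fzd, 4 Sfrp and 1 Dkk gene. The 11 others (Wnt1, Wnt3a, Wnt7a, Wnt7b, Wnt8b, Wnt10a, Wnt16, Fzd10, Fzd10os, Dkk2 and Dkk4) had 0 counts in 69 of their 88 values and at most 12 counts in any library. Of these 11, 6 had counts in a single library. A count of 12 in the shallowest library is 0.202 CPM, and values below it, which include some of those of the 5 tested ligands of lowest level, are too coarse to order genes or libraries. Of the Wnt genes that sit side by side in the genome, 1 of each pair had counts above this in some library. Wnt9a averaged 1.01 FPKM, while Wnt3a, which starts on the other strand 16175 bases away on chromosome 11, averaged 0.000566 FPKM. Wnt6 averaged 0.101 FPKM and Wnt10a, 6193 bases downstream on chromosome 1, 0.00577 FPKM. Wnt10b averaged 0.0674 FPKM and Wnt1, 11706 bases from it on chromosome 15, 0.00295 FPKM.

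None of the 24 tested members passed the test between the groups. The test was edgeR's quasi-likelihood test over 17787 genes, with a call at a Benjamini-Hochberg adjusted p under 0.05, and 0.647% of all tested genes were called. The adjusted p of the members ran from 0.107 to 0.992. At an unadjusted p under 0.05 there were 4 of the 24 (Wnt5a, Wnt9a and Fzd5 with a fold change above 0, Fzd4 with one below), or 16.7%, against 12.4% of all tested genes. DESeq2 called 1 member, Wnt5a, and 4.17% of the genes to which it gave an adjusted p. Limma on log2(FPKM + 1), for genes with a mean of at least 0.1 FPKM, called 0 of 19 members and 68 of 17334 genes in all. The fold change was above 0 for 10 members and below 0 for 14, with a median of −0.09 on the log2 scale beside −0.00071 for all tested genes. The groups were separate for 1 of the 24, Wnt5a, against 8.07% of all tested genes.

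**Figure D2:**
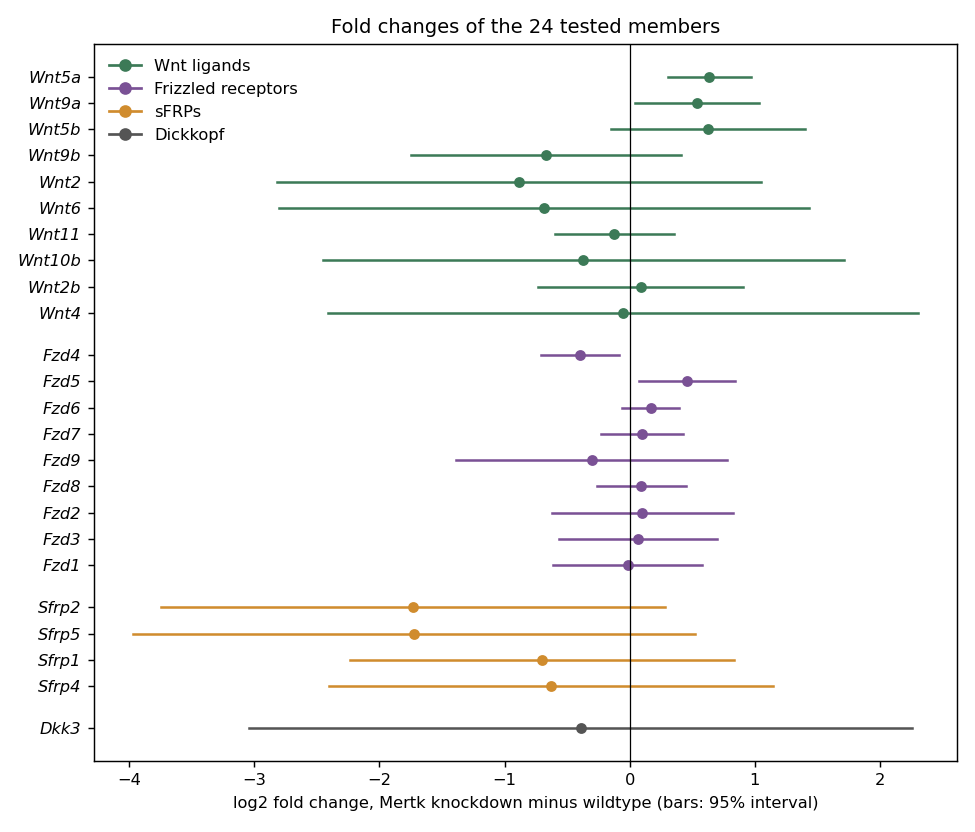
Log2 fold change (labelled Mertk knockdown minus wildtype, edgeR) of the 24 tested members with its 95% interval, by family and ordered by p. The intervals of Wnt5a, Wnt9a, Fzd5 and Fzd4 leave out 0 before adjustment, and those of Sfrp1, Sfrp2, Sfrp5 and Dkk3 are wider than those of all 9 receptors.

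Among the ligands, Wnt5a had the smallest p of all members. WNT5A is the best known ligand of the branch that works without beta-catenin, and it can also restrain the beta-catenin branch. The gene (chr14:28504750-28527448, plus strand, mm10) had 6.545, 5.72, 7.145 and 8.03 CPM in labelled knockdown replicates 1 to 4, against 3.94, 4.315, 4.58 and 4.81 CPM in wildtype replicates 1 to 4. All labelled knockdown libraries lay above all wildtype libraries. The antisense gene Gm2670, which overlaps it, had a mean of 2.75 counts. The means of Wnt5a were 6.86 ± 0.972 and 4.41 ± 0.372 CPM (SD, n = 4 each), a log2 fold change of 0.64 (SE 0.15, 95% interval 0.31 to 0.97, edgeR adjusted p = 0.107). DESeq2 gave an adjusted p of 0.00655 for the same difference. With any 1 library left out the log2 fold change was 0.56 to 0.71 (edgeR adjusted p 0.119 to 0.248). Wildtype replicate 1, the wildtype library with hepatocyte transcripts, had the lowest Wnt5a of all 8, and against this 1 wildtype library the 4 labelled knockdown libraries had a log2 fold change of 0.81 (edgeR adjusted p = 0.372). Without the 3 libraries with atrial transcripts it was 0.66 (edgeR adjusted p = 0.586). The sums of the 5 endothelial markers also did not overlap (574 to 746 CPM in labelled knockdown and 470 to 543 CPM in wildtype libraries), nor did those of the cardiomyocyte markers given above, while the 6 fibroblast markers overlapped (515.9 to 795.5 and 508.1 to 1257 CPM), as did the 5 macrophage markers (62.2 to 77.3 and 73.8 to 117 CPM). All of these markers had counts in every library, and their part in the Wnt5a difference was not tested.

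Wnt9a and Wnt5b had fold changes in the same direction with overlapping groups. Wnt9a, which is known for roles in joint and valve development, had 3.54, 4.38, 5.03 and 4.58 CPM in labelled knockdown replicates 1 to 4, against 2.48, 4.33, 2.83 and 2.46 CPM in wildtype replicates 1 to 4. Wildtype replicate 2 lay among the labelled knockdown values and the other wildtype libraries below all of them. Wnt9a thus had a log2 fold change of 0.54 (SE 0.22, 95% interval 0.04 to 1.03, edgeR adjusted p = 0.360), and with 1 library left out it was 0.45 (without wildtype replicate 1 or 4) to 0.77 (without wildtype replicate 2). It was 0.35 in the 5 libraries without atrial transcripts and 0.83 against wildtype replicate 1 alone. Wnt5b, the close relative of Wnt5a, had 1.87, 2.37, 4.07 and 3.24 CPM in labelled knockdown replicates 1 to 4, against 1.47, 3.21, 1.35 and 1.44 CPM in wildtype replicates 1 to 4. Again wildtype replicate 2 was the wildtype library among the labelled knockdown values. For Wnt5b the log2 difference came to 0.63 (SE 0.35, 95% interval −0.15 to 1.403, edgeR adjusted p = 0.520), and with 1 library left out it was 0.42 (without labelled knockdown replicate 3) to 1.03 (without wildtype replicate 2). It was 0.25 in the 5 libraries without atrial transcripts and 0.98 against wildtype replicate 1 alone. Wnt5b shares 2963 bases with Fbxl14 on the other strand, a gene with a mean of 711 counts, and its value is uncertain because the use of strand in counting is not known.

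Wnt11, a ligand of cardiac development that acts mainly without beta-catenin, had 2.16 to 3.62 CPM in labelled knockdown libraries and 2.62 to 3.55 CPM in wildtype libraries, with a 95% interval of −0.60 to 0.35 for its log2 fold change. Wnt2b had 1.04 to 1.55 CPM in labelled knockdown libraries and 0.451 to 1.44 CPM in wildtype libraries. The 5 tested ligands of lowest level had means of 0.151 to 0.374 CPM in labelled knockdown libraries and 0.211 to 0.596 CPM in wildtype libraries, and their 95% intervals reached from at least −1.74 to at least 0.41. Summed over the 17 Wnt genes, ligand FPKM was 4.22 ± 0.908 in labelled knockdown libraries and 3.36 ± 0.593 in wildtype libraries (SD, n = 4 each), with overlapping ranges of 3.22 to 5.27 and 2.81 to 4.20 FPKM.

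**Figure D3:**
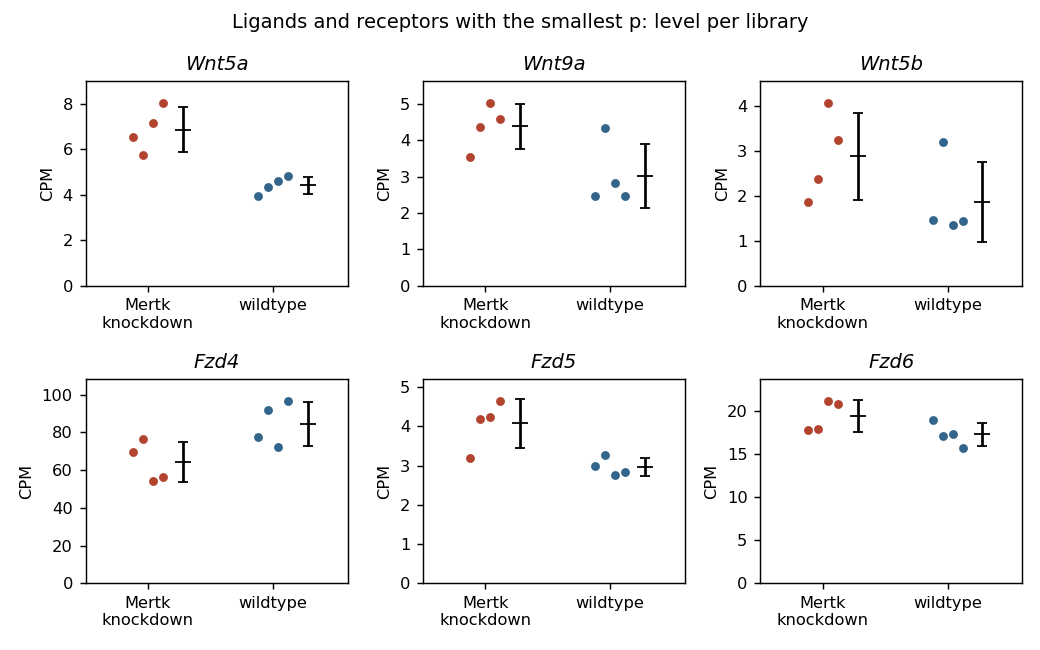
CPM of the 3 ligands and the 3 receptors with the smallest p, 1 point per library, with mean and SD (black) beside the points of each group (n = 4). Wnt5a is the panel in which the groups do not overlap, at 5.72 to 8.03 CPM in labelled Mertk knockdown and 3.94 to 4.81 CPM in wildtype libraries.

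Among the receptors, Fzd4 was the most abundant Frizzled in all 8 libraries and the one with the smallest p. FZD4 is a receptor that in endothelial cells, with the Norrin ligand and TSPAN12, is needed for retinal vessels. Fzd4 (chr7:89404355-89413134, plus strand) had 69.4, 76.8, 54.45 and 56.4 CPM in labelled knockdown replicates 1 to 4, against 77.5, 92.1, 72.2 and 96.9 CPM in wildtype replicates 1 to 4. Labelled knockdown replicate 2 lay above wildtype replicate 3, and the other labelled knockdown libraries lay below every wildtype library. Fzd4 had a log2 fold change of −0.40 (SE 0.14, 95% interval −0.71 to −0.09, edgeR adjusted p = 0.274). It stayed below 0 with any 1 library left out (−0.49 to −0.32, edgeR adjusted p 0.239 to 0.491), was −0.33 in the 5 libraries without atrial transcripts, and was −0.26 against wildtype replicate 1 alone. The endothelial and the cardiomyocyte marker sums given above were both higher in the labelled knockdown libraries, and their part in the Fzd4 values was not tested.

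Fzd5, a receptor that can signal through beta-catenin, had 3.20, 4.18, 4.25 and 4.65 CPM in labelled knockdown replicates 1 to 4, against 2.98, 3.27, 2.76 and 2.84 CPM in wildtype replicates 1 to 4. Labelled knockdown replicate 1 lay below wildtype replicate 2, and the other labelled knockdown libraries were above every wildtype library. Fzd5 had a log2 fold change of 0.46 (SE 0.17, 95% interval 0.07 to 0.84, edgeR adjusted p = 0.312), 0.32 in the 5 libraries without atrial transcripts and 0.46 against wildtype replicate 1 alone. Fzd6, a receptor of planar cell polarity, had 17.75, 18.0, 21.2 and 20.8 CPM in labelled knockdown replicates 1 to 4, against 19.0, 17.1, 17.3 and 15.8 CPM in wildtype replicates 1 to 4. The groups overlapped, and the interval of its log2 fold change was −0.06 to 0.40 (edgeR adjusted p = 0.561). The 6 other tested receptors (Fzd1, Fzd2, Fzd3, Fzd7, Fzd8 and Fzd9) had edgeR adjusted p of 0.854 to 0.991, and their fold changes lay between −0.30 and 0.10 on the log2 scale.

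Over the 8 libraries the receptors varied less than the inhibitors. The highest library was 1.36-fold above the lowest in FPKM for Fzd6, 1.79-fold for Fzd4 and 1.52-fold for Fzd7, and at most 4.04-fold (Fzd9) among the 9 tested receptors. The same ratio was 7.81 for Sfrp1, 18.0 for Dkk3, 18.6 for Sfrp2 and 37.5 for Sfrp5. Among 12624 tested genes with a mean of 0.3 to 20 FPKM the median ratio was 1.66, and 3.66% had a ratio of at least 7. Frizzled FPKM summed to 18.6 ± 0.729 in labelled knockdown libraries and 20.4 ± 3.39 in wildtype libraries (SD, n = 4 each). Fzd4 made up 51.3%, 54.1%, 42.0% and 40.7% of that sum in labelled knockdown replicates 1 to 4, against 53.9%, 53.2%, 55.5% and 60.9% in wildtype replicates 1 to 4. Labelled knockdown replicates 3 and 4 had the lowest shares of the 8.

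**Figure D4:**
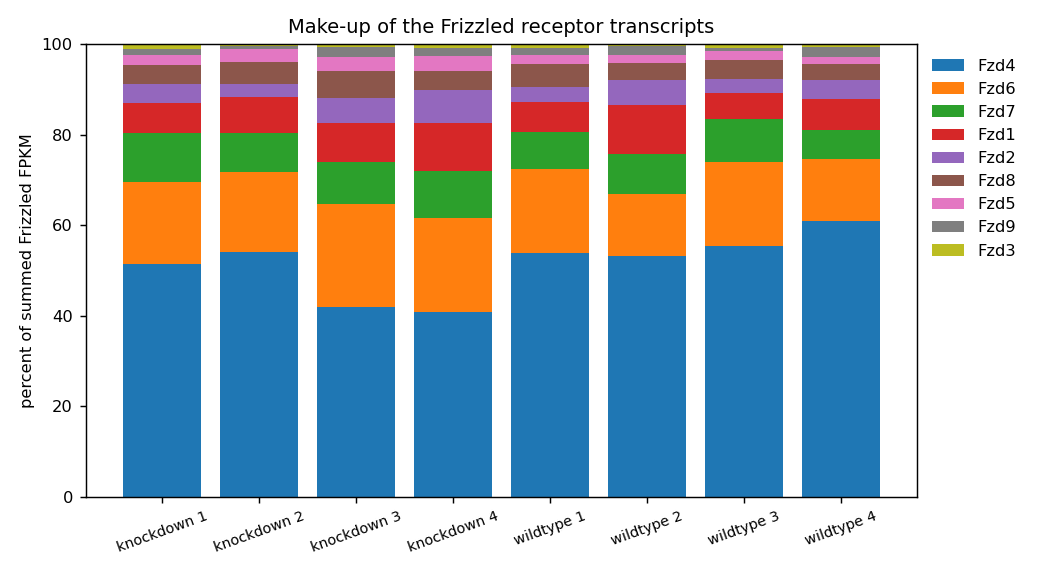
Share of each tested Frizzled gene in the summed Frizzled FPKM (percent) of each library, with the 4 labelled Mertk knockdown libraries left of the 4 wildtype libraries. Fzd4 fills 40.7% to 60.9% of every bar, and Fzd6 is next in all of them.

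The secreted inhibitors differed more between single libraries than between the groups. Dkk3, a divergent Dickkopf gene that is known to be expressed in atrial muscle (chr7:112116017-112159057, minus strand), had 5.35, 4.20, 6.597 and 73.75 CPM in labelled knockdown replicates 1 to 4, against 5.88, 33.8, 34.3 and 44.0 CPM in wildtype replicates 1 to 4. The libraries fell into 4 of 4.20 to 6.597 CPM, in both groups, and 4 of 33.8 to 73.75 CPM, also in both groups. The log2 fold change was −0.39 (95% interval −3.04 to 2.26, edgeR adjusted p = 0.932), and −2.45 without labelled knockdown replicate 4 (edgeR adjusted p = 0.279). Against wildtype replicate 1 alone it had the other sign, 1.94. Of the 4 high libraries, 3 were those with atrial transcripts. The fourth, wildtype replicate 2, had an atrial marker sum of 3.71 CPM and the highest sum of the 6 fibroblast markers. Among the libraries with atrial transcripts Dkk3 was at 73.75 CPM in labelled knockdown replicate 4, and 34.3 and 44.0 CPM in wildtype replicates 3 and 4. Among the others it was at 4.20 to 6.597 CPM in labelled knockdown libraries, and at 5.88 and 33.8 CPM in wildtype replicates 1 and 2 (log2 fold change −1.88, edgeR adjusted p = 0.692). Of the atrial markers Sln and Bmp10 were at 0 in 4 libraries each and Myl7 in 3, while Myl4 had counts in all; their part in the Dkk3 values was not tested.

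Sfrp1 and Sfrp2, both products of fibroblasts in many tissues, shared their highest library. Sfrp1 (chr8:23411502-23449632, plus strand) had 9.05, 5.89, 13.5 and 19.99 CPM in labelled knockdown replicates 1 to 4, against 6.91, 44.8, 9.02 and 17.9 CPM in wildtype replicates 1 to 4. Sfrp2, whose upstream bases are given above, had 0.950, 1.22, 2.695 and 3.155 CPM in labelled knockdown replicates 1 to 4, against 1.735, 16.7, 1.20 and 6.925 CPM in wildtype replicates 1 to 4. For both genes wildtype replicate 2 was highest by far. For Sfrp2, wildtype replicate 4 also lay above every labelled knockdown library. The other wildtype values of both genes lay within the range of the labelled knockdown ones. The fibroblast markers summed to 636.5, 515.9, 774.6 and 795.5 CPM in labelled knockdown replicates 1 to 4, against 544.5, 1257, 508.1 and 840.5 CPM in wildtype replicates 1 to 4, with all 6 markers present in every library. The 5 markers of valve and cartilage reached 131 CPM in wildtype replicate 2, against 3.34 to 36.7 CPM in labelled knockdown and 8.69 to 30.0 CPM in the other wildtype libraries. The part of either in the sFRP values was not tested.

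The log2 fold change of Sfrp1 was −0.70 (95% interval −2.23 to 0.83, edgeR adjusted p = 0.733), and that of Sfrp2 −1.73 (95% interval −3.74 to 0.28, edgeR adjusted p = 0.485). Without wildtype replicate 2 they were 0.10 and −0.71. In the 5 libraries without atrial transcripts they were −1.44 and −2.51, and against wildtype replicate 1 alone both had the other sign, 0.82 and 0.22. Differences of several-fold lie within both intervals. Sfrp5, an sFRP known from fat tissue and from the inflow region of the heart, had 0.181, 0.649, 0.674 and 1.585 CPM in labelled knockdown replicates 1 to 4, against 0.978, 0.226, 7.03 and 2.01 CPM in wildtype replicates 1 to 4. Its highest library was wildtype replicate 3, which also had the highest sum of the 5 adipocyte markers, 40.0 CPM, against 0.0940 to 1.26 CPM in labelled knockdown libraries and 0 to 0.828 CPM in the other wildtype libraries. Of these markers Lep was at 0 in 7 libraries, Ucp1 in 6, Adipoq and Plin1 in 3 each and Cidec in 1, and their part in the Sfrp5 value was not tested. Its log2 fold change was −1.72 (95% interval −3.97 to 0.52, edgeR adjusted p = 0.539), and −0.47 without wildtype replicate 3. It was −0.25 in the 5 libraries without atrial transcripts, a set that lacks that library, and −0.33 against wildtype replicate 1 alone. Sfrp4 stayed at or below 0.517 CPM in all 8 libraries.

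**Figure D5:**
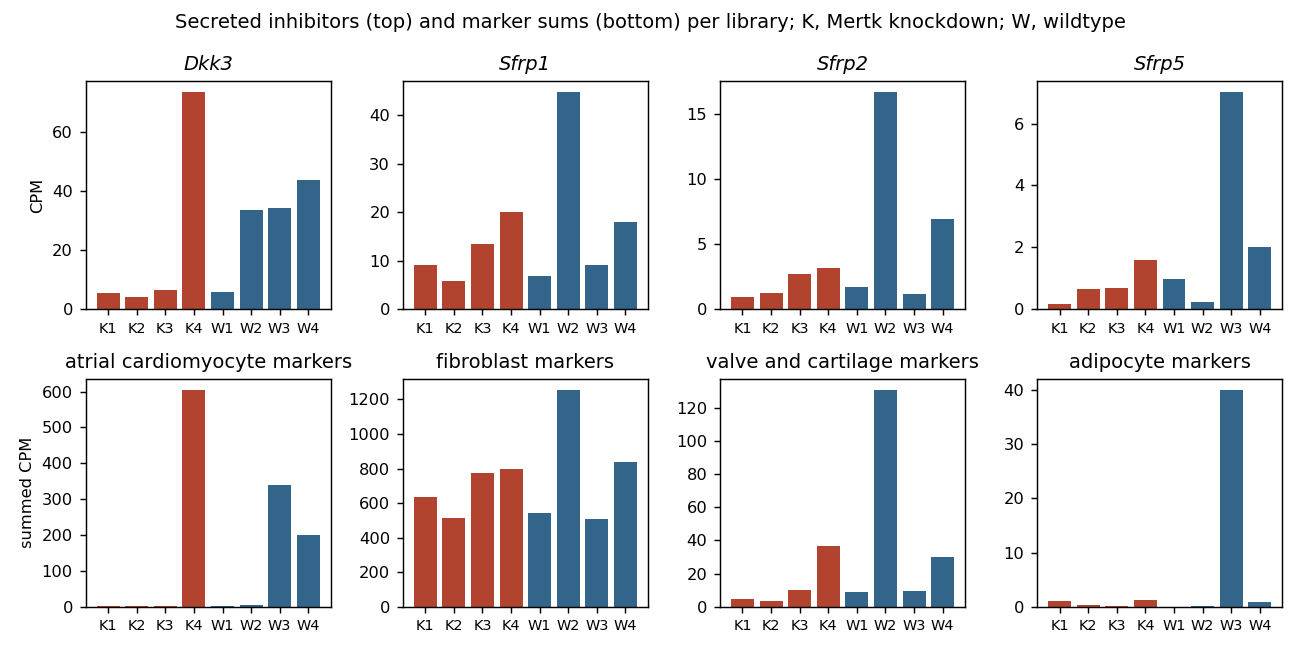
CPM of 4 secreted inhibitors (top) and summed CPM of 4 marker lists (bottom) in each library, with labelled Mertk knockdown libraries (K, red) left of wildtype libraries (W, blue). Dkk3 is high in the 3 libraries with atrial transcripts and in wildtype replicate 2, Sfrp1 and Sfrp2 are highest in wildtype replicate 2, and Sfrp5 is highest in wildtype replicate 3.

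The rest of the pathway was followed through 7 lists with 91 genes, of which 84 were tested. Over these lists 2 genes rose and 0 fell by edgeR, where 0.275% of all tested genes were called higher and 0.371% lower, and the median log2 fold change was 0.08. Apc2, a relative of the scaffold protein of the beta-catenin destruction complex, had 8.76, 9.42, 9.025 and 10.2 CPM in labelled knockdown replicates 1 to 4, against 6.21, 6.26, 5.15 and 6.25 CPM in wildtype replicates 1 to 4 (log2 fold change 0.65, SE 0.12, edgeR adjusted p = 0.0464). Jun, a subunit of the AP-1 transcription factor that is a target of both Wnt branches and of many other signals, had 92.5, 92.5, 106 and 138 CPM in labelled knockdown replicates 1 to 4, against 59.2, 71.4, 53.0 and 65.0 CPM in wildtype replicates 1 to 4 (log2 fold change 0.79, SE 0.15, edgeR adjusted p = 0.0471). Neither gene overlapped between the groups. The call of Apc2 was lost with any 1 library left out except wildtype replicate 1 (edgeR adjusted p 0.0496 to 0.142), that of Jun with any 1 of the 8 left out (0.0519 to 0.121), while the log2 fold changes were 0.58 to 0.68 for Apc2 and 0.65 to 0.87 for Jun. In the 5 libraries without atrial transcripts the log2 fold changes were 0.55 and 0.58 (edgeR adjusted p = 0.551 and 0.472), and against wildtype replicate 1 alone 0.60 and 0.86 (0.395 and 0.289). These fits hold fewer samples.

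The other lists had 0 called genes by edgeR. Over all tested genes 8874 had a fold change above 0 and 8913 had one below 0. Of 8 coreceptors and alternative receptors, 5 had a fold change above 0 (median 0.10 on the log2 scale), and those with the smallest p were Tspan12 (0.37, edgeR adjusted p = 0.507), the tetraspanin that works with FZD4, and Mcam (0.27, edgeR adjusted p = 0.597). Of 13 tested genes of secretion and extracellular modulation 3 were above 0 (median −0.12), with Sost, an LRP inhibitor best known from bone, at 1.455 (edgeR adjusted p = 0.294) and Cthrc1, a matrix protein of activated fibroblasts, at −2.29 (edgeR adjusted p = 0.440); both averaged under 1 CPM in either group. Of the 6 tested genes of the R-spondin axis, which raises receptor levels, Lgr4 had 0.24 (edgeR adjusted p = 0.557), and Rspo2 was at or near 0 (0 to 0.302 CPM in labelled knockdown and 0 to 0.204 CPM in wildtype libraries, edgeR adjusted p = 0.709). Of 18 cytoplasmic transducers 13 were above 0, among them Ctnnbip1, an inhibitor of beta-catenin, at 0.31 (edgeR adjusted p = 0.340). Of 13 genes of the nuclear complex 4 were above 0, and the coactivators Bcl9l and Bcl9 had −0.33 and −0.23 (edgeR adjusted p = 0.325 and 0.527). Of 14 genes of planar polarity 12 were above 0 (median 0.18). Intu, a polarity effector needed for cilia, had 0.52 (edgeR adjusted p = 0.145, and 0.0383 without labelled knockdown replicate 3; DESeq2 adjusted p = 0.0246), and Celsr3 1.05 (edgeR adjusted p = 0.328). Of 12 tested targets and feedback genes 6 were above 0 and 6 below. Besides Jun, Cd44 had −0.40 (edgeR adjusted p = 0.241), and Axin2, the feedback target most often read as a sign of beta-catenin activity and named here for that use, had 2.775, 2.90, 3.635 and 2.57 CPM in labelled knockdown replicates 1 to 4, against 2.24, 2.19, 2.255 and 2.51 CPM in wildtype replicates 1 to 4 (log2 fold change 0.37, 95% interval −0.04 to 0.78, edgeR adjusted p = 0.469). The groups did not overlap for 6 of the 84 genes, against 8.07% of all tested genes. Of these, Apc2, Ctnnb1, Intu, Jun and Axin2 had higher values in labelled knockdown libraries, and Cd44 had lower ones. Ctnnb1, the gene of beta-catenin, had a log2 fold change of 0.18 (edgeR adjusted p = 0.440). Ccn5, a secreted matricellular protein, is named after its values were seen: it had 4.36, 7.07, 9.04 and 10.99 CPM in labelled knockdown replicates 1 to 4, against 10.87, 56.3, 7.27 and 24.1 CPM in wildtype replicates 1 to 4 (log2 fold change −1.65, edgeR adjusted p = 0.371).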

How the data were processed

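RNA from mouse hearts was sequenced in 8 libraries, and the deposited table gives, for each gene and library, a read count and an FPKM value, both made by the authors. The submitters' processing notes name cutadapt 1.9, HISAT2 2.2.1, StringTie 2.1.6, DESeq2, edgeR and the build mm10; the role of each, and whether counting used strand, are not given in the sources used here. The deposited counts pile up at multiples of 4 when small: a count of 4 is 2.35 times as common as the mean of its neighbours. A floor of 12 counts (0.168 to 0.202 CPM) was therefore used for low levels.

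Genes were tested on the deposited counts with edgeR 4.0.16 in R 4.3.3 (TMM factors, filterByExpr, robust quasi-likelihood F test, no covariate, Benjamini-Hochberg adjustment over all 17787 tested genes). CPM values use the TMM-scaled library sizes, and their SD is over libraries. Levels of different genes were compared only in the deposited FPKM. The tests were tried on simulated data before use. Replicate libraries differed by far more than counting noise (chi-square per degree of freedom 37.89 to 198.7), so all 8 were kept. All 35 gene IDs were found in GENCODE M21, 32 with the same start and end.

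Values in every library are given for members that were called or did not overlap between the groups, and for the 3 tested members with the smallest p in each family. Of each pathway list the called genes and the 2 with the smallest p are named. The members, lists and rules were chosen with earlier results of these data known. The alternatives used upper quartile or RLE factors, all genes with a count, DESeq2 1.42.0, limma 3.58.1 on log2 of the deposited FPKM plus 1 or 0.1 (mean of at least 0.1 FPKM, or no filter), the replicate number as a block, and each library left out in turn. Counts divided by 4, and the sets of 5 libraries with hepatocyte or without atrial transcripts, were added after seeing the data.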

Additional observations from a re-analysis of the deposited data

Results flagged for a closer look

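Sets of 4 libraries were searched by Dixon's criterion, 48 in all (24 tested members in each group). In 5 of them 1 library stood far from the other 3. The rate of about 1 in 20 by chance holds for normally distributed values. That was not tested for these CPM values, so the 5 cannot be weighed against it. Dkk3 had 73.75 CPM in labelled knockdown replicate 4, where the other labelled knockdown libraries had 4.198 to 6.597 CPM. Wnt5b had 3.214 CPM in wildtype replicate 2, where the other wildtype libraries had 1.353 to 1.467 CPM. Wnt2b had 0.4511 CPM in wildtype replicate 3, where the others had 1.328 to 1.435 CPM. Wnt10b had 0.6518 CPM in wildtype replicate 4 (others 0.1358 to 0.2208 CPM), and Sfrp4 had 0.5171 CPM in labelled knockdown replicate 3 (others 0.05869 to 0.1206 CPM); the lower values of both genes lie near or below the floor of 12 counts.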

How the results depend on the processing

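Of 190 values of the 10 members given in every library (19 alternatives each), 185 kept their direction and their side of the threshold, 1 passed it (Wnt5a under DESeq2) and 4 changed direction. Of these 4, 3 came from setting the 4 labelled knockdown libraries against wildtype replicate 1 alone, the single wildtype library with hepatocyte transcripts, where the log2 fold change was 1.94 for Dkk3, 0.82 for Sfrp1 and 0.22 for Sfrp2. The other came from leaving out wildtype replicate 2: with 1 library left out that of Sfrp1 was −1.05 to 0.10. The number of called members was 1 under DESeq2 and 0 under all other alternatives. Over all genes 115 were called, but 668 by DESeq2, 68 and 70 by limma on log2(FPKM + 1) and log2(FPKM + 0.1), 21 by limma without a filter, and 44 to 265 with 1 library left out (265 without wildtype replicate 1, 44 without labelled knockdown replicate 3). The 5 libraries with hepatocyte transcripts gave 42 and the 5 without atrial transcripts 6. Of the 84 other pathway genes tested 2 were called, beside 0.647% of all tested genes. DESeq2 called 3 of the 84, beside 4.17% of all genes to which it gave an adjusted p. The count was 2 with RLE or upper quartile factors or counts divided by 4, and 1 without a filter. It was 0 under each limma fit and in the 5 libraries without atrial transcripts, and 0 to 1 with 1 library left out. The cause was not tested, except that the sets of 5 hold fewer samples. Whether the replicate numbers pair the libraries is not settled by these values. Deviations of same-numbered libraries from their group means correlated at 0.0615, 6.3e-05, −0.00646 and 0.181. Of the 4 labelled knockdown libraries, 2 correlated best with their own number. With the replicate block 24 genes in all, 0 members and 0 other pathway genes were called. Values under 12 counts per library are coarse at this depth.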
